A study of Mus musculus with 2 samples.

Results

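MicroRNA genes linked to neurons, glia or sensory cells were followed in mouse calf muscle: Mir338, Mir128-1, Mir128-2, Mir138-1, Mir138-2, Mir183, Mir96 and Mir182. These are 8 of the 2202 genes in the count tables. They were chosen by their GENCODE M21 symbols, with their read counts in these same libraries and the differences between the libraries already known. Their levels and ratios are therefore given as a description, with no test. Small RNA libraries had been made from the gastrocnemius of 2 female mice aged 36 days. Their strain, B6CASTF1/J, is the F1 cross between the inbred strains C57BL/6 and CAST/EiJ, and the labels give no treatment and no other group. The labels number the libraries as biological replicates 2 and 1 and describe separate females, but both records carry 1 donor identifier, so the spread between them may be technical. Ratios are replicate 2 over replicate 1 throughout.

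MicroRNAs are short RNAs cut from hairpin precursors. Bases 2 to 8 of the mature strand, the seed, pair with target messenger RNAs and lower their translation or stability. miR-338 lies in an intron of the kinase gene Aatk and is known from oligodendrocytes, where it acts beside miR-219 in the switch from precursor to myelinating cell. miR-128 and miR-138 are enriched in brain neurons, miR-138 being known for limiting the size of dendritic spines. miR-183, miR-96 and miR-182 are made from 1 cluster in hair cells of the inner ear, photoreceptors and sensory neurons, and changes in the seed of miR-96 cause hearing loss. Muscle holds motor and sensory axons, Schwann cells and muscle spindles, but in bulk tissue fewer cells of a type and less RNA per cell cannot be told apart.

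All 8 hairpins were found in the RefSeq microRNA table (GRCm38.p6, the assembly called mm10 in the deposited files), with 16 mature forms, 14 distinct sequences and 13 distinct seeds. The forms that bear on the counts are shown 5′ to 3′ with the seed in capitals. The first 3 come from genes that share no mature sequence with another hairpin of that table. They belong to the sensory cluster and are printed in the order of transcription.
miR-183-5p: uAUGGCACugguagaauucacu
miR-96-5p: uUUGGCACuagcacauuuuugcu
miR-182-5p: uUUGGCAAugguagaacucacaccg
Counted from the 5′ end, the seeds of miR-96-5p and miR-182-5p differ only by C8A, and those of miR-183-5p and miR-96-5p only by A2U. miR-96-5p and miR-182-5p have the same first 7 bases. Beyond the seed the likeness is another one, as miR-183-5p and miR-182-5p have the same base at 18 of 22 positions, against 12 of 23 for miR-96-5p and miR-182-5p.

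Both arms of Mir338 occur in no other hairpin of the RefSeq table read in the same direction. The reverse complement of each lies in the hairpin of Mir3065 on the other strand. The forms are shown because that overlap decides whether Mir338 is counted at all.
miR-338-3p: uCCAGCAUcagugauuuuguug
miR-338-5p: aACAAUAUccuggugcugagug
miR-3065-5p: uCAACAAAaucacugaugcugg
The places of miR-338-3p and miR-3065-5p overlap by 21 bases on opposite strands.

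Mir128-1 and Mir128-2 give the same miR-128-3p, and Mir138-1 and Mir138-2 give the same miR-138-5p. The hairpins are printed with the shared mature form in capitals, because a read that matches more than 1 place is counted for no gene and appears only in a summary row.
Mir128-1: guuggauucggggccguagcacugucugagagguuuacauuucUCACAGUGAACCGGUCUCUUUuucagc
Mir128-2: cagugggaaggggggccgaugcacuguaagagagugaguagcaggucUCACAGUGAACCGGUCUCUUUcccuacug
Mir138-1: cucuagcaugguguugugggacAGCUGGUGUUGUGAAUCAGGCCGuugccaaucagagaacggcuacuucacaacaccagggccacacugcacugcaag
Mir138-2: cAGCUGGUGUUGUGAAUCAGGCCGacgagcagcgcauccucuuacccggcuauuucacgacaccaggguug
The run common to both Mir128 hairpins around the mature form is 23 bases long and ends with its last base, so a read that goes on to position 22 of the form differs between the copies. For Mir138 the common run is at least 24 bases long, as it reaches the start of the Mir138-2 hairpin. The copies part at position 24 of the form. The other arms differ between the copies and are shown with the seed in capitals.
miR-128-1-5p: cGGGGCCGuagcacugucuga
miR-128-2-5p: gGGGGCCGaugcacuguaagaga
miR-138-1-3p: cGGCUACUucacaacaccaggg
miR-138-2-3p: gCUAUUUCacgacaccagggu
The 5p arms of Mir128 share their seed and 16 of 21 bases, while the 3p arms of Mir138 match at 5 of 21 positions when set base against base without gaps. The reads counted for these 4 genes are thus those placed at 1 locus, and the tables do not say from which arm they came. For the shared forms, placement can rest on 1 base past the form. Whether it gives the locus of origin was not tested.

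The genes lie at 6 places in the genome (mm10). Mir338 is at chr11:120014765-120014862 on the minus strand in an intron of Aatk, with Mir3065 covering 87 of its bases on the other strand. Mir128-1 is at chr1:128202361-128202430 in an intron of R3hdm1, a gene for a protein with an RNA-binding R3H domain. Mir128-2 is at chr9:112118636-112118711 in an intron of Arpp21, which codes for a phosphoprotein of neurons. Both have the direction of their host. Mir138-1 is at chr9:122682876-122682974 within an exon of the pseudogene Gm47135, and Mir138-2 is at chr8:94324311-94324381 within an exon of the long non-coding RNA gene C78859. The sensory cluster is on the minus strand of chromosome 6 in no annotated host gene. Mir183 at chr6:30169668-30169737 lies 116 bases from Mir96 at chr6:30169446-30169551, and Mir96 lies 3453 bases from Mir182 at chr6:30165918-30165992. The nearest protein-coding gene, Nrf1, ends 12460 bases from Mir182 and runs in the other direction.

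Replicate 2 had 2078101 reads assigned to genes and replicate 1 had 1593787. Levels are counts per 1000000 of these reads (CPM). They are not divided by length, since each read is a whole short RNA, and the joining of adapters favours some sequences over others, so the order of the genes is an order of counts. Reads with several matches made up 77.6% of replicate 2 and 75.4% of replicate 1. Detection was taken as 10 or more reads in each library, which 273 genes reached. Of the skeletal muscle list, 7 of 9 genes were detected, with 6.98% of gene-assigned reads in replicate 2 and 2.21% in replicate 1. Mir206 alone supplied most of these, with 139295 and 32871 reads for replicates 2 and 1. Both shares leave out reads with several matches, so they do not give the whole muscle microRNA content. Mir486, Mir1a-2, Mir133a-1 and Mir133a-2 have no mature form in the RefSeq table, so forms they may share with another hairpin were not checked. Intervals are exact at 95% for the counting of reads only and leave out the spread between libraries. PCR copies of a molecule are counted as reads of their own, which the intervals do not allow for.

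Together the 8 genes held 2696 reads (0.130%, interval 0.125 to 0.135) in replicate 2 and 3596 reads (0.226%, 0.218 to 0.233) in replicate 1, a mean of 0.178% ± 0.0678 (SD, n = 2). Detection was reached by 6 of 8, while Mir183 and Mir96 had 10 reads or more in replicate 1 only. By mean level the order was Mir338 with 1022 ± 694 CPM, Mir128-1 with 464 ± 161, Mir138-1 with 89.3 ± 60.9, Mir128-2 with 76.1 ± 48.2, Mir138-2 with 44.6 ± 39.9, Mir182 with 44.3 ± 48.3, Mir183 with 32.3 ± 39.5 and Mir96 with 3.76 ± 5.32 CPM (SD, n = 2 each). Each neighbouring pair in that order differed by less than the larger of its SDs, except Mir128-1 and Mir138-1. Mir338 ranked 63 and Mir128-1 ranked 87 among the 2202 genes, and these were the only 2 above the median of the detected genes, 166 CPM. The order was not that of either library alone. In replicate 2 Mir128-1 with 578 CPM (546 to 612) and Mir338 with 532 CPM (501 to 564) had overlapping counting intervals, while in replicate 1 Mir128-1 had 350 CPM (322 to 380) and Mir338 1513 CPM (1453 to 1574).

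**Figure D1:**
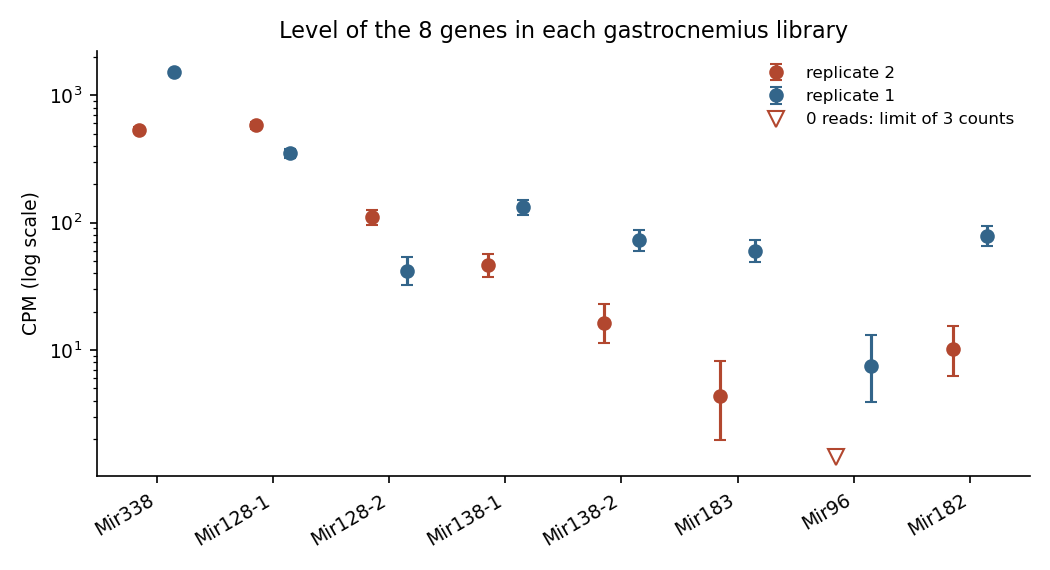
CPM on a log axis for the 8 genes, with 1 point per library and exact 95% counting intervals as bars. The open triangle has no bar and marks 3 counts, or 1.44 CPM, taken as the limit for the 0 reads of Mir96 in replicate 2. Only the Mir128 copies sit higher in replicate 2 than in replicate 1.

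Mir338, the glial gene, had 1105 reads in replicate 2 and 2411 in replicate 1. It was 2.87-fold lower in replicate 2 (interval 2.67 to 3.08), after scaling with TMM factors. Its share of the reads of the 8 genes was 41.0% (39.1 to 42.9) in replicate 2 and 67.0% (65.5 to 68.6) in replicate 1. Mir338 was therefore the largest of the 8 in replicate 1 and second to Mir128-1 in replicate 2, with 0.919 and 4.32 reads per read of Mir128-1 in replicates 2 and 1. Without Mir338 the other genes summed to 766 CPM in replicate 2 and 744 CPM in replicate 1, a fold of 1.02 (0.946 to 1.10). That sum joins differences in opposite directions. In replicates 2 and 1 the Mir128 copies had 689 and 392 CPM, the Mir138 copies 62.6 and 205 CPM, and the sensory cluster 14.4 and 146 CPM. The reads of Mir338 lay on the strand of the gene, with 1 read on the opposite strand in each library. Mir3065 had 1 read of its own in each library. Counted without regard to strand, both genes stood at 0 in both libraries, since reads in overlapping genes then go to a summary row of ambiguous reads.

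The Mir128 copies were higher in replicate 2. Mir128-1, with 1202 reads in replicate 2 and 558 in replicate 1, had a fold of 1.64 (1.48 to 1.81). The fold of Mir128-2, with 229 reads in replicate 2 and 67 in replicate 1, was 2.60 (1.97 to 3.47). The counts of both copies, on chromosomes 1 and 9 with different hosts, went the same way. Placement of reads of the shared form can rest on the next base, U in Mir128-1 and C in Mir128-2. The 2 counts are therefore not taken as independent readings. Mir128-1 held most of the reads in both libraries. The share of Mir128-2 in the reads of the copies was 16.0% (14.1 to 18.0) in replicate 2 and 10.7% (8.40 to 13.4) in replicate 1, intervals that do not overlap. Summed, the copies had 689 CPM in replicate 2 and 392 CPM in replicate 1, a fold of 1.74 (1.58 to 1.92). These values cover reads placed at 1 locus, and the reads of miR-128-3p that match both hairpins are in neither count.

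The Mir138 copies went the other way. Mir138-1 had 96 reads in replicate 2 and 211 in replicate 1, and was 2.89-fold lower in replicate 2 (2.26 to 3.72). Mir138-2 had 34 reads in replicate 2 and 116 in replicate 1, and was 4.49-fold lower (3.04 to 6.78). The 2 copies, on chromosomes 9 and 8, were thus both lower in replicate 2, and Mir138-1 had more reads than Mir138-2 in both libraries. Here too the counts are not taken as independent readings, as the base past the shared form is U in Mir138-1 and A in Mir138-2. Mir138-2 held 26.2% (18.8 to 34.6) of the reads of the copies in replicate 2 and 35.5% (30.3 to 40.9) in replicate 1, with overlapping intervals. The sum was 62.6 CPM in replicate 2 and 205 CPM in replicate 1, 3.31-fold lower (2.69 to 4.09). The same limit on reads that match both hairpins, here those of miR-138-5p, applies.

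All 3 genes of the sensory cluster were lower in replicate 2. Mir183, the first in the direction of transcription, had 9 reads in replicate 2 and 96 in replicate 1, which is 14.0-fold lower with a wide interval (7.09 to 31.6). Mir96 was at 0 in replicate 2 against 12 reads in replicate 1. A count of 0 allows up to 3 counts, or 1.44 CPM, in replicate 2, which makes Mir96 at least 5.26-fold lower there when its 12 reads in replicate 1 are taken as they stand. The exact interval of the ratio, which also covers the counting error of those 12 reads, has its bound at 3.65-fold lower. Mir182, the last of the 3, had 21 reads in replicate 2 and 125 in replicate 1, and was 7.83-fold lower (4.90 to 13.1). Its ratio was the lowest of the 273 detected genes. The cluster as a whole had 14.4 CPM in replicate 2 and 146 CPM in replicate 1, 10.2-fold lower (6.97 to 15.5). A difference between the libraries in the division of reads within the cluster was not tested. Mir182 held 70.0% (50.6 to 85.3) in replicate 2 and 53.6% (47.0 to 60.2) in replicate 1, Mir183 held 30.0% (14.7 to 49.4) and 41.2% (34.8 to 47.8), and Mir96 0% (0 to 11.6) and 5.15% (2.69 to 8.82). The intervals of all 3 shares overlapped between the libraries, and they rest on 30 reads in replicate 2 and 233 in replicate 1.

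**Figure D2:**
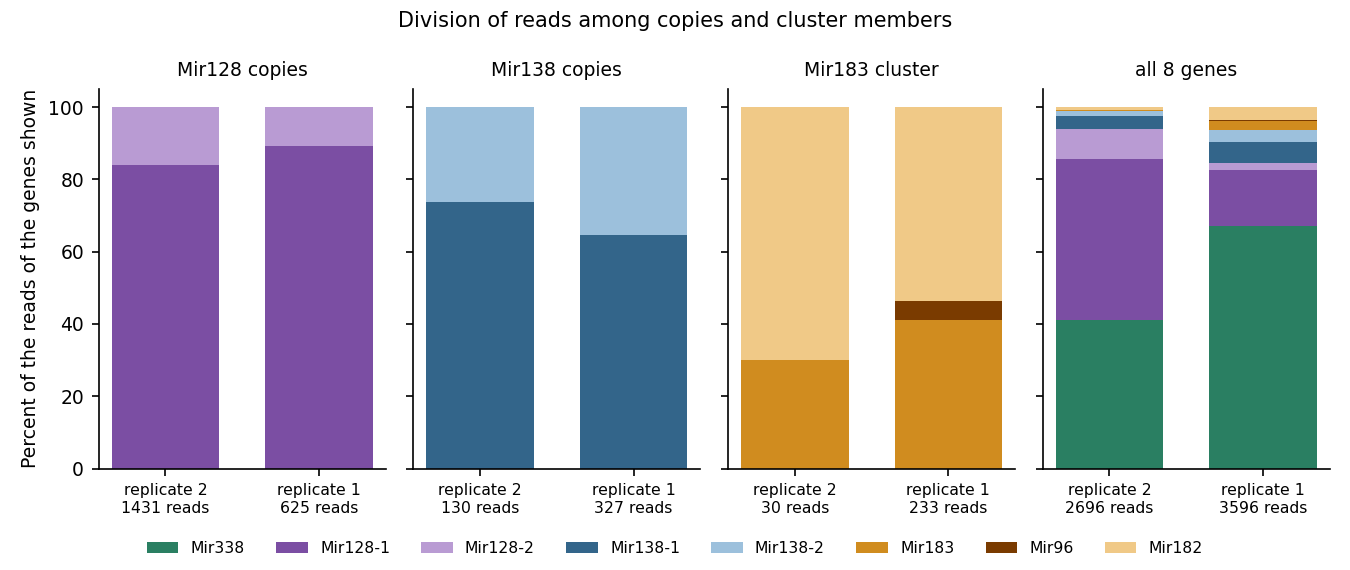
Percent of reads (bars stacked from 0) that each gene took of its family, with replicate 2 left of replicate 1 and the number of reads under each bar. Mir128-2 takes 16.0% and 10.7% of the Mir128 reads, and Mir338 41.0% and 67.0% of the reads of all 8 genes, in replicates 2 and 1.

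Of the 6 detected genes, 5 differed by more than 2-fold between the libraries, 1 higher (Mir128-2) and 4 lower (Mir338, Mir138-1, Mir138-2 and Mir182) in replicate 2. Over all 273 detected genes 11.7% differed by that much, 4.76% higher and 6.96% lower. The members were chosen with these ratios known, so nothing is read from the contrast of the 2 shares. The median absolute log2 ratio was 1.53 for the 6 genes and 0.36 for all detected genes, and the median log2 ratio was -1.53 and -0.06. With 1 library on each side, no ratio has a replicate check. Around the 2-fold mark among detected genes, Mir487b lay just outside with a fold of 2.02, and Mir184 and Mir200c just inside with folds of 1.97 and 0.507. Of the 5 genes past 2-fold, only Mir128-2 had a counting interval that reached below 2-fold, and the interval of Mir128-1, the gene within 2-fold, lay wholly below it.

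**Figure D3:**
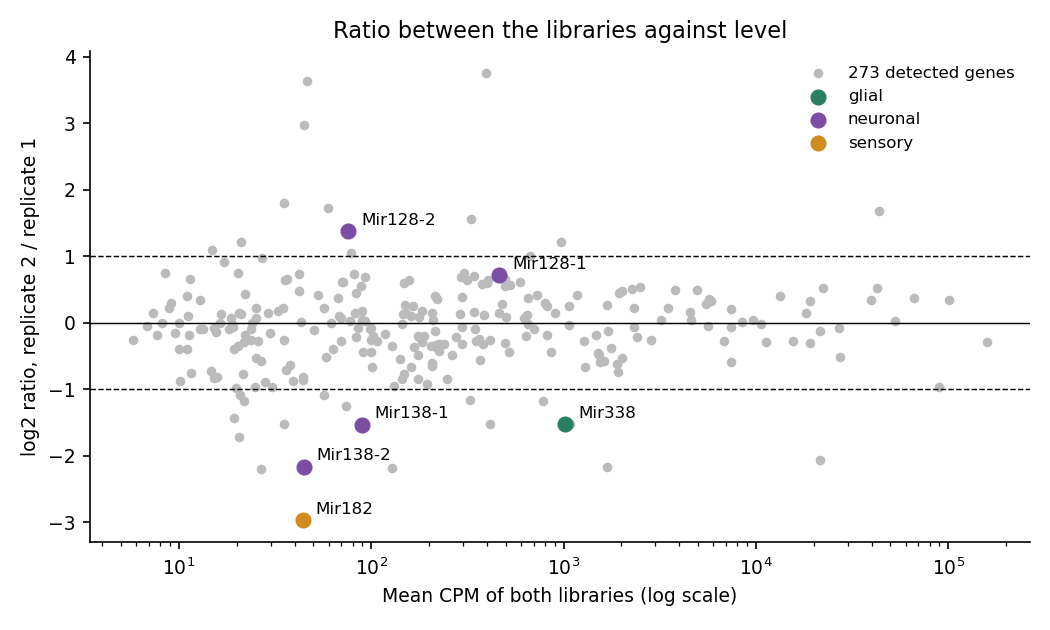
Log2 ratio of replicate 2 over replicate 1 against mean CPM (log axis) for the 273 detected genes in grey, with the 6 detected genes of the report in colour and dashed lines at 2-fold. Mir182 lies lowest of all points, and Mir128-1 and Mir128-2 lie above 0.

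Other nerve and glial microRNA genes had fewer reads placed at 1 locus than Mir338 and Mir128-1, but not fewer than the rest of the 8. By mean level Mir204 with 99.2 CPM and Mir132 with 93.2 CPM lay above Mir138-1 with 89.3 CPM. A neural list of 22 genes holds 18 besides the Mir128 and Mir138 copies, and 4 of these were detected, with none more than 2-fold higher and 1 more than 2-fold lower. That 1 was Mir137, a microRNA of neuronal maturation with no identical copy in the RefSeq table. It had 20 reads in replicate 2 and 70 in replicate 1 and was 4.60-fold lower (2.77 to 7.99). Mir132, induced by neuronal activity, counted 240 reads in replicate 2 and 113 in replicate 1, with a fold of 1.62 (1.29 to 2.04). Mir212, from the same precursor transcript as Mir132, had 11 reads in replicate 2 and 3 in replicate 1, too few to be called detected. Mir134, a dendritic microRNA, had 161 and 142 reads and Mir7-1 had 100 and 109 reads in replicates 2 and 1, both within 2-fold. The listed genes thus held values on either side of 1, as the Mir128 and Mir138 copies did. Besides the Mir128 and Mir138 copies, the list summed to 275 CPM in replicate 2 and 289 CPM in replicate 1. In RefSeq, 13 of the 19 neural genes found there share a mature form with another hairpin, Mir7-1 among them. Reads that match more than 1 hairpin are in no count, so the sum leaves them out. The 3 genes of miR-124 and Mir9-1 and Mir9-2 had no read in either library. The miR-9 genes have identical copies and the miR-124 genes give the same mature miR-124, so counts of 0 there set no limit on either mature form.

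Of the glial list of 5, Mir338 and Mir204 were detected. Mir204, known from the retinal pigment epithelium and choroid plexus, counted 188 reads in replicate 2 and 172 in replicate 1, with a fold of 0.831 (0.672 to 1.03). The miR-219 genes, the partners of miR-338 in oligodendrocytes, were nearly without reads, with 8 and 4 for Mir219a-1 and 7 and 5 for Mir219a-2 in replicates 2 and 1. They share a mature form, whose reads are in neither count. Mir211, which belongs to the same family as Mir204, had 3 reads in replicate 2 and 9 in replicate 1. Besides Mir338 the glial list summed to 99.1 CPM in replicate 2 and 119 CPM in replicate 1, of which Mir204 held 90.5 and 108 CPM.

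**Figure D4:**
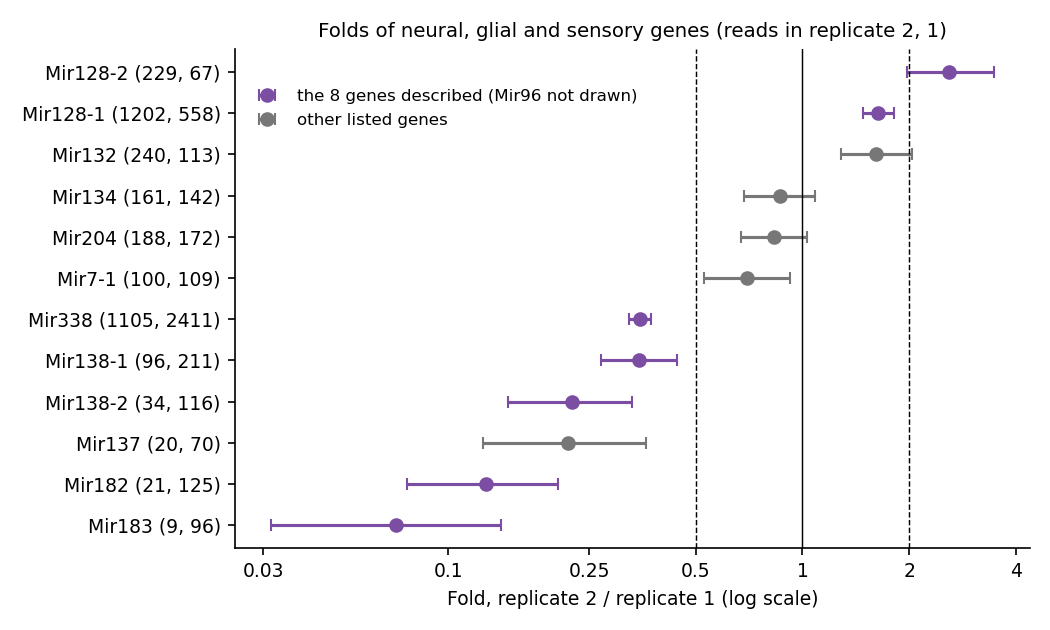
Fold of replicate 2 over replicate 1 (log axis) with exact 95% counting intervals for the neural, glial and sensory genes that had reads in both libraries and at least 20 in all, with reads in replicates 2 and 1 in brackets and dashed lines at 2-fold. Folds run from 0.0713 for Mir183 to 2.60 for Mir128-2, and Mir137 lies among the lower genes of the report.

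Markers of other cell types also differed between the libraries, and their part in the ratios of the 8 genes was not tested. The epithelial list, of interest because some epithelia make the miR-183 cluster, had sums of 152 CPM in replicate 2 and 280 CPM in replicate 1. Of its 7 genes 3 were detected, and none of these 3 was past 2-fold. Each of the 7 was lower in replicate 2, but the share of all genes that were lower was not counted. The median log2 ratio of all detected genes was also below 0, at -0.06. The detected epithelial genes were Mir203, 1.80-fold lower (1.53 to 2.12), Mir200c, 1.97-fold lower (1.19 to 3.30), and Mir205, 1.14-fold lower (0.499 to 2.57, which includes 1). Among the 4 below detection, Mir429 had 5 reads in replicate 2 and 18 in replicate 1 and was 4.73-fold lower (1.69 to 16.3). Mir141 had 0 and 7 reads in replicates 2 and 1. Mir200b had 3 and 6 reads and Mir200a 3 and 4 reads, both with an interval that included 1. Both erythroid genes were more than 2-fold lower, with 0.898% of reads in replicate 2 and 3.73% in replicate 1. All 4 leukocyte genes were detected, 1 more than 2-fold higher and 2 lower, with 0.209% in replicate 2 and 0.142% in replicate 1. Neither smooth muscle gene passed 2-fold (6.25% in replicate 2 and 12.0% in replicate 1), nor did any of the 3 detected endothelial genes of 4 (11.3% and 8.86%). Of the 7 detected skeletal muscle genes, 2 were more than 2-fold higher and none lower, Mir206 with a fold of 3.22 (3.18 to 3.26) and Mir499, a microRNA of slow muscle fibres, with a fold of 13.5 (10.9 to 17.0). Mir208b, another microRNA of slow fibres, missed detection with 889 reads in replicate 2 and 5 in replicate 1, a fold of 135 (57.7 to 417). The neuroendocrine list was 86.6 CPM in replicate 2 and 9.41 CPM in replicate 1, nearly all from Mir375, a microRNA of endocrine cells with 179 and 11 reads.

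The genes with the most similar levels, by distance over log2(CPM + 1) in the 2 libraries, were of other families. Mir338 lay nearest to Mir29c (559 CPM in replicate 2 and 1596 CPM in replicate 1, distance 0.106) and Mir106b (485 and 1085 CPM, 0.496). Mir128-1 lay nearest to Mir328 (0.161) and Mir107 (0.206), and Mir128-2 to Mir30c-1 (0.274) and Snord43 (0.533). Mir138-1 was nearest to Mir188 (0.348) and Mir199b (0.659). The 2 genes nearest to Mir138-2 were Mir31 (0.499) and Mir182 (0.653), and those nearest to Mir182 were Mir138-2 and the neural Mir137 (0.825). Across 2 libraries such likeness is a description of 2 pairs of values. Among mouse microRNAs in the RefSeq table, only miR-1271-5p shares the seed of miR-96-5p, and its gene, annotated as Gm24195, had 0 reads in both libraries. The 3p arm of Mir96 shares its seed with miR-3475-5p, whose gene Mir3475 had 4 reads in each library. In that table no other hairpin, apart from the Mir128 and Mir138 copies themselves, shared a seed with any of the 16 forms. The table is not complete, as it held 19 of the 22 listed neural genes and 5 of the 9 listed skeletal muscle genes.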

How the data were processed

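The authors deposited 1 table of raw read counts over microRNA genes for each library, for mm10 and the M21 annotation per the deposited read-me text. Which aligner and counter made them is not given in the sources used here. Per the labels, total RNA was used with a size range under 30 nucleotides. The tables have no column names and hold 4 summary rows and 3 count columns, read from their layout as without strand, on the gene's strand (used here) and on the opposite strand. Total reads were 14072830 in replicate 2 and 9538917 in replicate 1. Summary rows were left out of all totals. In replicates 2 and 1, reads matching several places were 77.6% and 75.4%, unmapped reads 5.98% and 6.37%, and reads outside microRNA genes 1.65% and 1.49%.

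Folds used TMM factors from all genes (edgeR 4.0.16, R 4.3.3) and exact conditional binomial 95% intervals; shares had Clopper-Pearson intervals. No test was run, as there is 1 group of 2 libraries. Symbols and hosts came from GENCODE M21 and sequences from RefSeq (GRCm38.p6). Named genes were the 8 members, genes overlapping them, up to 4 abundant genes of each marker list where they bear on the members, the 2 nearest in level, and genes sharing a seed. Genes nearest the 2-fold mark and Mir212, the miR-9, miR-124 and miR-219 genes, Mir211, Mir208b, Mir429, Mir200a, Mir200b and Mir141 were named after their values were seen. Members and lists were chosen with earlier results of these data known. The fold and interval calculation was tried on simulated counts that held counting error only. There, folds were checked with TMM factors, but the intervals were checked with library totals in place of those factors. Alternatives were other scalings, minimums, pseudocounts, totals, strand and single libraries. Scripts ran on matplotlib 3.10.9, scipy 1.17.1, pandas 2.3.3 and numpy 2.4.6 under Python 3.11.15.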

Additional observations from a re-analysis of the deposited data

Results flagged for a closer look

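Some values of the tables lie outside the counts used for the 8 genes and exceed the limit of 3 counts. The summary row of multiply matched reads held 10919725 in replicate 2 and 7195252 in replicate 1, or 5.25 and 4.51 per gene-assigned read, and reads of the forms shared by the Mir128 and Mir138 copies would be among them. The opposite-strand column of Mir3065 listed 1105 counts in replicate 2 and 2411 in replicate 1, equal to the counts of Mir338 on its own strand, so the same reads were listed for both genes.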

How the results depend on the processing

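No ratio of the 7 genes with reads in both libraries changed direction under another scaling. Each scaling shifted all ratios alike, and the smallest log2 ratio, that of Mir128-1, lay between 0.712 and 0.844. A pseudocount added to both libraries cannot change a direction. Without regard to strand Mir338 gave no ratio and the other genes had the same counts, so that setting could not change a direction through the counts either. TMM factors from the detected genes alone, an alternative chosen after seeing the data, left 5 of the 6 detected genes past 2-fold, against 12.1% of all detected genes. With at least 50 reads in both libraries, 3 of the 4 genes left were past 2-fold, against 9.0% of the 200 genes of the tables left. The share of reads held by the 8 genes was 0.108% with counts without regard to strand, where Mir338 had 0 reads, and 0.0308% when reads with several matches joined the total. It was between 0.130% and 0.226% with 1 replicate left out, and 6 or 8 genes then reached 10 reads. The log2 ratio of Mir183 ranged between -3.81 and -2.30 and that of Mir182 between -2.97 and -2.15, in both cases smallest with 10 CPM added, and that of Mir338 between -1.52 and -1.39. Depth limits Mir183 and Mir96, with 9 and 0 reads in replicate 2. No paired analysis was possible because there is 1 group.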
